A study of Mus musculus with 2 samples.

Results

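The weak solitary EBF1 peaks are listed binding regions that hold few ChIP reads and have no other listed peak nearby. Members lay on chromosomes 1 to 19 or X and held at most 10 ChIP reads in the 150 bp of the peak. They also had fewer than 50 input reads in the 1 kb bin of their centre and no other listed centre within 50 kb. There were 1247 such peaks among 7415 on these chromosomes, 16.8% (exact 95% interval 16.0 to 17.7%), and among 7424 in the whole list. They were compared with 1391 equally weak peaks that had another listed centre within 50 kb, and with 1728 solitary peaks that held more than 10 ChIP reads. Reads were counted after moving each 5′ end 100 bp towards its 3′ end. The members were chosen by their ChIP and input read counts and by the positions of the called peaks, so counts within the peaks are given as a description.

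EBF1 had been mapped in B cells from the spleens of adult C57BL/6 mice by chromatin immunoprecipitation and sequencing (ChIP-seq). Both groups, the EBF1 ChIP and the input (fixed chromatin sequenced without precipitation), held 1 library each. The cells had been depleted of CD43, AA4.1, CD9, CD4 and CD8 positive cells with magnetic beads. About 97% of the rest were B220 positive, and about 92% of these carried CD23 and an intermediate level of CD21, as follicular B cells do. The antibody was a rabbit polyclonal serum raised against mouse EBF1. No gene level marker can be read from these data, so the cell type rests on the labels.

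EBF1 is a transcription factor required to specify and maintain the B cell lineage. It binds DNA as a dimer, at many places in the genome alone and at others close to further bound sites. Where a protein is crosslinked to DNA, ChIP fragments span the site: their left ends are read on the plus strand and their right ends on the minus strand. Reads of a bound site therefore form a plus strand hump before the site and a minus strand hump after it.

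The ChIP library held 24354888 reads and the input 23053279, and ratios were divided by 1.06, the ratio of their reads on chromosomes 1 to 19, X and Y. A count of 0 allows up to 3 reads, which is 0.123 RPM (reads scaled to library size) in the ChIP library and 0.130 in the input. Intervals cover counting error only. Since each group was a single library, no difference has a replicate check or a test, and every comparison is between these 2 libraries. All coordinates are in the mm8 build.

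The members were crowded at their upper limit of reads. A member held a median of 9 ChIP reads (range 1 to 10) and 1 input read (range 0 to 6). Exactly 9 or 10 ChIP reads were held by 634 members (50.8%), 5 to 8 by 589, and 1 to 4 by 24. Their 10269 ChIP and 1019 input reads gave a scaled ChIP to input ratio of 9.54 (8.94 to 10.2). For the weak peaks with a neighbour it was 8.69 (8.19 to 9.22) and for the stronger solitary peaks 11.4 (11 to 11.8). The input count was 0 in 568 members (45.5%, 42.8 to 48.4%), in 542 weak peaks with a neighbour (39.0%) and in 320 of the stronger solitary peaks (18.5%). Taken 1 by 1, 894 members (71.7%) had an interval of the ratio above 1, against 86.6% of all peaks tested. The rule used these reads, so nothing is read from that gap.

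Peaks on either side of the rule's limits differed in part. The 308 members with 10 ChIP reads had a median score of 5.41, and the 261 solitary peaks with 11 reads had 5.70. At 156 to 500 bp from the centre the scaled ratio was 1.59 (1.51 to 1.68) for the former and 1.80 (1.71 to 1.90) for the latter, and these intervals do not overlap. It was 1.73 (1.60 to 1.88) for 132 members with the nearest centre 50 to 60 kb away and 2.03 (1.87 to 2.21) for 114 weak peaks with it 40 to 50 kb away. The nearest other centre lay 50.01 kb from the least isolated member, and 49.94 kb away for the weak peak just outside that limit. The input limit removed 0 weak solitary peaks, and the largest input count in a member's 1 kb bin was 39.

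The authors' score of these peaks was tied to reads in a wider stretch than the listed 150 bp. When plus strand ends were moved by 100 bp and minus strand ends by 99 bp, every pair of ChIP and input counts within 310 bp of DNA centred on the peak had 1 score. The 917 pairs of counts matched 917 distinct scores over all 7424 listed peaks. In the listed 150 bp, 378 of 706 pairs had more than 1 score, and in 310 bp with ends moved by 50 bp 513 of 1001 pairs did. The move and the width of this counting window were found by trying several after the data had been seen. Through the score, both the ChIP and the input reads in these 310 bp entered the choice of listed peaks.

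In the 310 bp counting window the members were not uniformly sparse. They held a median of 15 ChIP reads (range 13 to 44) and 1 input read (range 0 to 14). The fewest ChIP reads of any listed peak were 13 where the window held 0 input reads, 14 with 1, 15 with 2, 17 with 3 and 18 with 4. Of the 1247 members, 578 (46.4%) lay exactly on that least count for their input and 900 (72.2%) within 1 read of it. Among weak peaks with a neighbour 613 (44.1%) lay on it. The plot of window counts shows the members lying along this lower edge, with a thin tail above it.

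**Figure D1:**
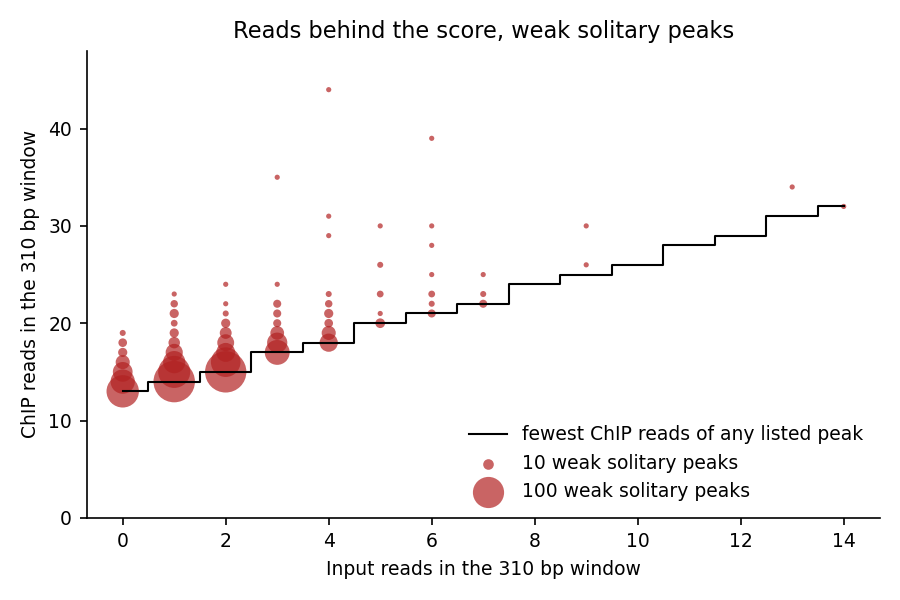
ChIP reads (y axis) against input reads (x axis) in the 310 bp window around each of the 1247 weak solitary peaks; the area of a point grows with the number of peaks and the stepped line is the fewest ChIP reads of any listed peak at that input count. Most points sit on or just above the line, from 13 ChIP reads with 0 input reads, while single peaks reach 44.

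The highest scores among the members belonged to peaks whose reads were packed beside the centre. The top member (chromosome 11, 25000111 to 25000260) reached a score of 12.5 with 44 ChIP reads in the window but 9 in the 150 bp. Of its reads, 17 plus strand ends and 24 minus strand ends lay close to the centre, meaning from 35 bp on the outer side of it to 10 bp past it. The input had 3 ends there. On chromosome 2, the member at 16600791 to 16600940 (score 10.7) held 35 window reads, with 19 plus and 11 minus ends close to the centre. The member at 125839291 to 125839440 (score 9.59) held 39, with 15 and 17. The member on chromosome 9 at 4260331 to 4260480 (score 8.72) held 31, with 18 and 9. The fifth, on chromosome 2 at 32783791 to 32783940 (score 8.49), was of another kind, with 23 window reads and 2 plus and 3 minus ends close to the centre. All 10 of its reads counted in the 150 bp were on the minus strand. A single strand did not set it apart. All 9 such reads of the top member, and all 8 of the member at 125839291, were on the plus strand.

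Such packed reads were found in 19 members (1.52%), taken as those with at least 8 ChIP ends close to the centre on each strand, and in 11 weak peaks with a neighbour (0.791%). This limit was chosen after the data had been seen. The share over all listed peaks, or over stronger ones, is not given here. The 19 members held 465 ChIP ends close to the centre, of 530 reads in their windows, against 43 input ends close to the centre. The most frequent distance from a plus to a minus strand end was 33 bp in them, near the read length of 35 bp. An end within 25 bp of the centre on its outer side, or past it, lands outside the 150 bp once moved by 100 bp, so these peaks could count as weak with up to 44 reads in the window. Of the 16 members with at least 25 window reads, 12 were packed in this way. Input was also raised at some of them. The member on chromosome 9 at 3258791 to 3258940, which had the most input reads in its 150 bp (6, beside 9 ChIP reads), had 32 ChIP and 11 input ends close to the centre. Its ratio was 1.42 (0.451 to 4.85).

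The stranded profile of the weak solitary peaks differed in shape from that of stronger solitary peaks. Densities here are unmoved ends per kb and peak, with the plus strand before the centre and the minus strand after it added together. Members showed 123 ends per kb at 1 to 25 bp from the centre, 54.7 at 26 to 175 bp, 44.4 at 176 to 255 bp, then 20.0 at 256 to 355 bp. The stronger solitary peaks had 192, 154, 39.5 and 25.8. The level on the opposite side of the centre, at 800 to 1000 bp, was 13.4 for members and 14.9 for the stronger peaks. Members thus showed a narrow spike beside the centre and a shoulder that ended at about 255 bp, where the stronger peaks showed 1 smooth hump per strand. The stretch of 26 to 175 bp is the one whose reads the rule limits to 10, and the shoulder ends where the 310 bp counting window ends. The shape is therefore a description of chosen peaks. Weak peaks with a neighbour had 123, 54.6, 46.4 and 24.5 ends per kb in the same 4 stretches, so solitary and neighboured weak peaks had nearly the same profile up to 255 bp.

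Input reads showed the same counting window as a trough. Around members the input had 5.38 reads per kb in the 310 bp window and 10.5 per kb at 156 to 500 bp from the centre, a ratio of 0.510. Around weak peaks with a neighbour the ratio was 0.533, and around the stronger solitary peaks it was 0.991. In the profile by strand the trough was shifted between the strands in the way the moved reads are counted. The median plus strand input end within 200 bp of a member lay at 64 bp and the median minus strand end at -60 bp, whereas ChIP ends had medians of -41 and 39 bp. Listed weak peaks were thus places with few input reads as well as many ChIP reads, and the ratios within them carry both choices.

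**Figure D2:**
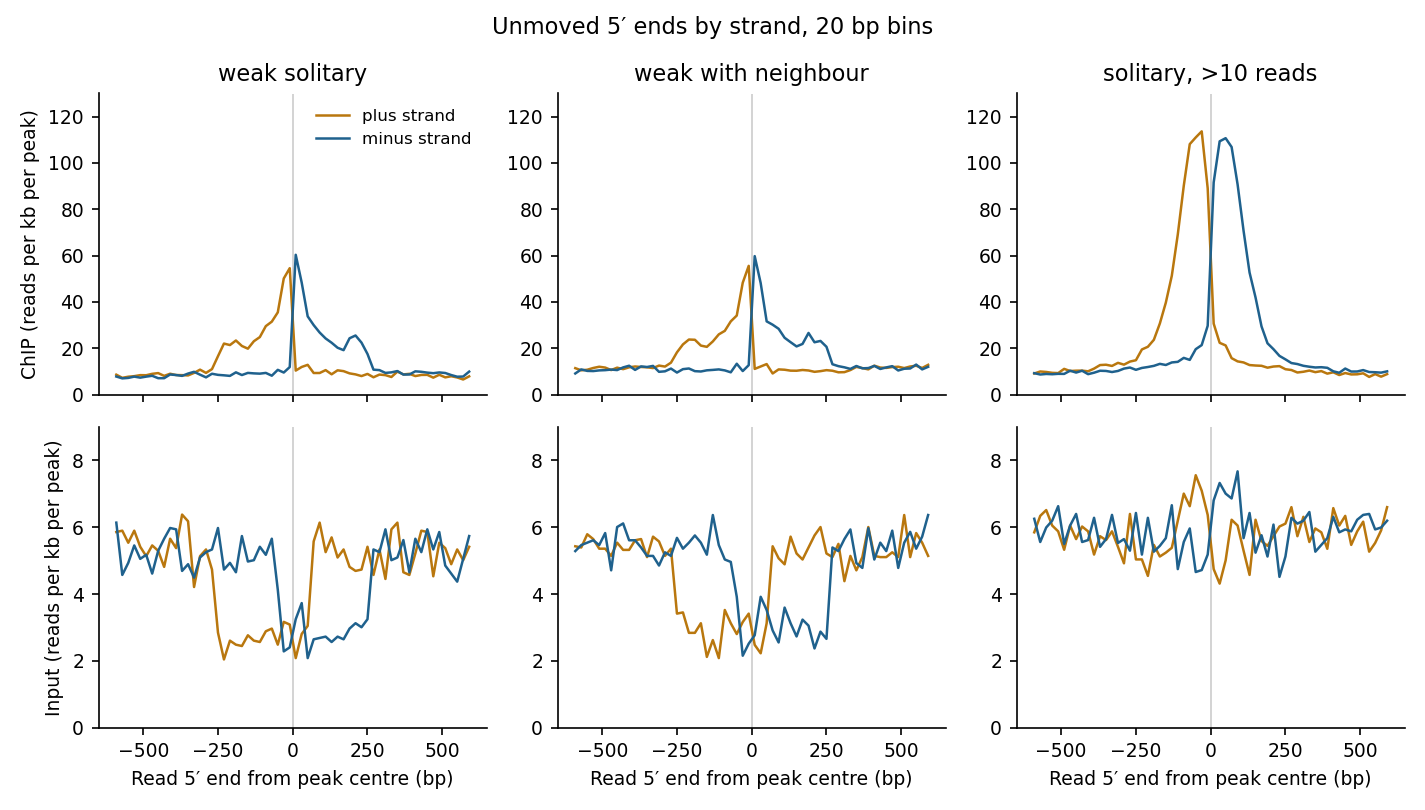
Density of unmoved read 5′ ends by strand (y axis, reads per kb per peak, 20 bp bins) against distance from the peak centre (x axis, bp), for ChIP (upper row) and input (lower row) in the 1247 weak solitary peaks, 1391 weak peaks with a neighbour and 1728 solitary peaks with over 10 reads. Both weak groups show a spike at the centre, a shoulder to about 255 bp and a trough in the input; the stronger peaks show smooth humps and no such trough.

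The distance between strands depended on how weak peaks were taken. The rule limits the ends that lie 26 to 175 bp from the centre, which make up this distance, so the values of members and stronger peaks are a description. The most frequent distance from a plus to a minus strand ChIP end, among distances of at least 60 bp and within 500 bp of the centres, was 88 bp in members, 88 bp in weak peaks with a neighbour and 115 bp in the stronger solitary peaks. With shorter distances allowed it was 35 bp in members and 37 bp without the 19 packed members. It was still 115 bp in the stronger peaks. In the input around members it was 114 bp. Pairs with the minus end 60 to 140 bp after the plus end were 1.54 times (1.51 to 1.57) as frequent in members as pairs in the reverse order. This excess was 1.44 (1.41 to 1.46) in weak peaks with a neighbour and 4.20 (4.17 to 4.23) in the stronger solitary peaks. In the input around members it was 1.26 (1.18 to 1.34). Pairs share reads, so these intervals are too narrow. Listed peaks were chosen by counts of moved ends, which favours plus ends before minus ends. The excess in the ChIP library therefore follows in part from that choice.

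Both strands took part in nearly every member. ChIP reads lay on both strands in 1223 members (98.1%, 97.1 to 98.8%) and in 1370 weak peaks with a neighbour (98.5%, 97.7 to 99.1%). Reads of 1 strand alone made up 24 members. With so many reads per peak these shares are close to their ceiling. Among peaks with exactly 10 reads the share with both strands was 99.7% (98.2 to 100%) in 308 members and 98.9% (97.1 to 99.7%) in 351 weak peaks with a neighbour. The plus strand gave 51.5% (50.5 to 52.5%) of the members' reads and 50.9% (50.0 to 51.8%) of those of the neighboured peaks.

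Ordering solitary peaks by reads in the 310 bp window, with no limit on the inner 150 bp, removed the spike as the leading distance. There were 1018 solitary peaks with 13 to 16 window reads, of which 827 (81.2%) were members. Their most frequent strand distance was 105 bp, also with shorter distances allowed, and 112 bp in the 1062 neighboured peaks of the same count. The inner 150 bp held 59.4% (58.6 to 60.2%) of their window reads and 58.5% (57.7 to 59.3%) in the neighboured peaks. An even spread would give 48.4%. The strand distance scattered from 93 to 131 bp over the 7 classes of solitary peaks by window reads, so differences of that size between weak groups are not resolved. In solitary peaks with at least 41 window reads the inner share was 69.7% (69.1 to 70.2%), the strand distance 113 bp and the excess of ordered pairs 5.50, against 1.60 (1.56 to 1.64) at 13 to 16 reads. The inner share stayed between 59.1% and 60.1% from 13 to 21 window reads and was higher above that. Centres were placed on the same reads, so an inner share above an even spread follows in part from that choice. The excess of ordered pairs does so too.

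**Figure D3:**
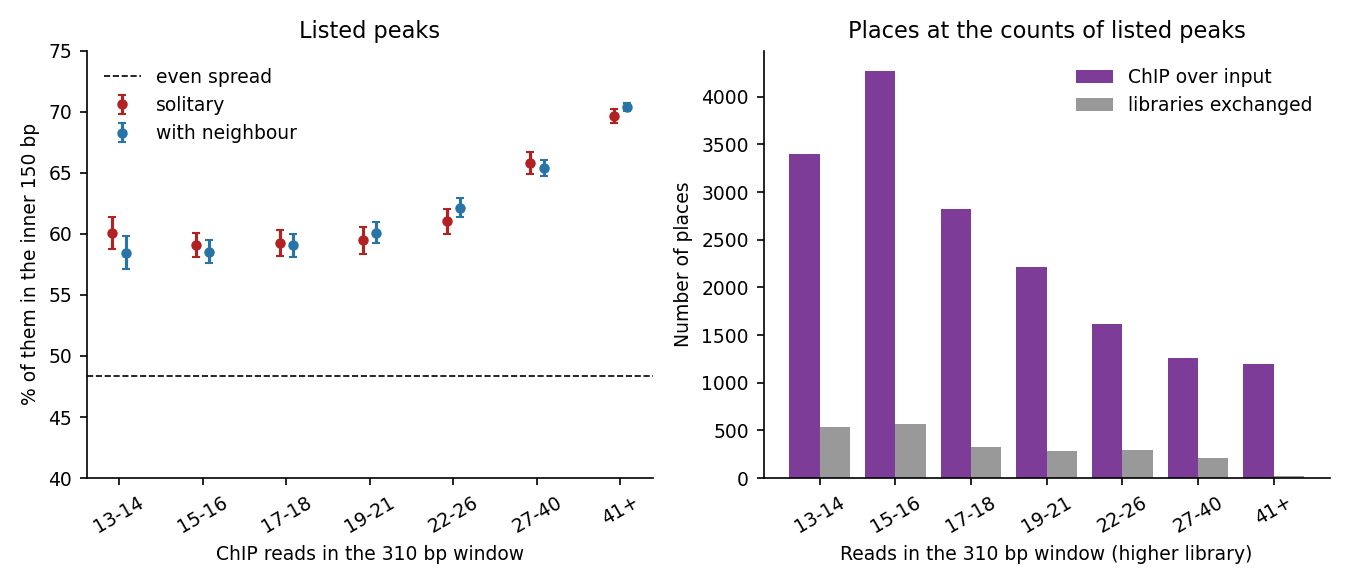
Left, share of a peak's window reads in its inner 150 bp (y axis, %, bars are exact 95% intervals) by ChIP reads in the 310 bp window, for listed solitary and neighboured peaks, with the even spread of 48.4% dashed; both groups stay near 59% up to 21 reads and reach about 70% at 41 or more. Right, number of places in the genome at the counts of listed peaks, with the libraries as they are and exchanged, by reads of the higher library; the exchanged count is lower in all 7 classes.

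With ends moved by 50 bp, the summed ChIP profile of the members was about as wide as that of stronger peaks. The rule limits the reads in the peak, so both its lower height and its width are given as a description. With 5′ ends moved by 50 bp, the width at 50% of the height above the level at 800 to 1000 bp was 101 bp in members, 100.1 bp in weak peaks with a neighbour and 112 bp in the stronger solitary peaks. The highest 20 bp bin stood at 7.14 times the flank in members, 5.21 times in weak peaks with a neighbour and 14.5 times in the stronger solitary peaks. Solitary peaks with 13 to 16 window reads had a width of 103 bp. Widths changed little with strength, from 104 bp at 13 to 14 window reads to 117 bp at 41 or more. With ends moved by 100 bp the members' width was 208 bp, so it depended on the move. For the stronger peaks only the width at 50 bp is given here, so the likeness rests on that setting.

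ChIP reads were also raised beside the members, outside the 310 bp counting window. At 156 to 500 bp from the centre, without 2 kb around any other listed peak, members had 15412 ChIP and 9071 input reads, a scaled ratio of 1.61 (1.57 to 1.65). The ratio was 1.30 (1.27 to 1.33) at 501 to 1000 bp, 1.15 (1.13 to 1.17) at 1 to 2 kb and 1.12 (1.12 to 1.13) at 10 to 25 kb. ChIP density fell over these distances from 18.9 reads per kb at 156 to 300 bp to 11.5 at 10 to 25 kb, while input density went from 10.7 to 9.72. Relative to 10 to 25 kb, the ratio at 156 to 500 bp was 1.44 (1.40 to 1.47), which amounts to 3.75 ChIP reads per peak above the surroundings. Taken singly, 247 members (19.8%) had an interval of the scaled ratio above 1 at 156 to 500 bp, against 24% of all peaks tested. In the ring from 76 to 500 bp, which overlaps the counting window, 578 members (46.4%) did, against 48.9% of all. Both shares were near those of all peaks, so nothing particular to members is read from them. The limit there is a ratio of 1, not the level at 10 to 25 kb.

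Weak peaks with a neighbour had a higher ratio beside the peak, and so did their surroundings. Removing other peaks left 1161 of the 1391 with sequence at these distances. Their ratio at 156 to 500 bp was 1.78 (1.73 to 1.83), and the members stood at 0.904 (0.871 to 0.938) of it. At 10 to 25 kb the neighboured peaks had 1.27 (1.26 to 1.27), above the 1.12 of the members. Each relative to its own 10 to 25 kb, members had 1.02 times (0.984 to 1.06) the value of neighboured peaks, an interval that includes 1. Relative to stronger solitary peaks, which had 1.86 (1.82 to 1.90) at 156 to 500 bp and 1.11 at 10 to 25 kb, members had 0.853 (0.825 to 0.882). From 76 bp outwards the quotient to neighboured peaks was 0.936 (0.906 to 0.968), and with the neighbour limit at 25 kb it was 0.986 (0.952 to 1.02), which includes 1. The lower ratio beside the members thus depended on the distance that counts as solitary.

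**Figure D4:**
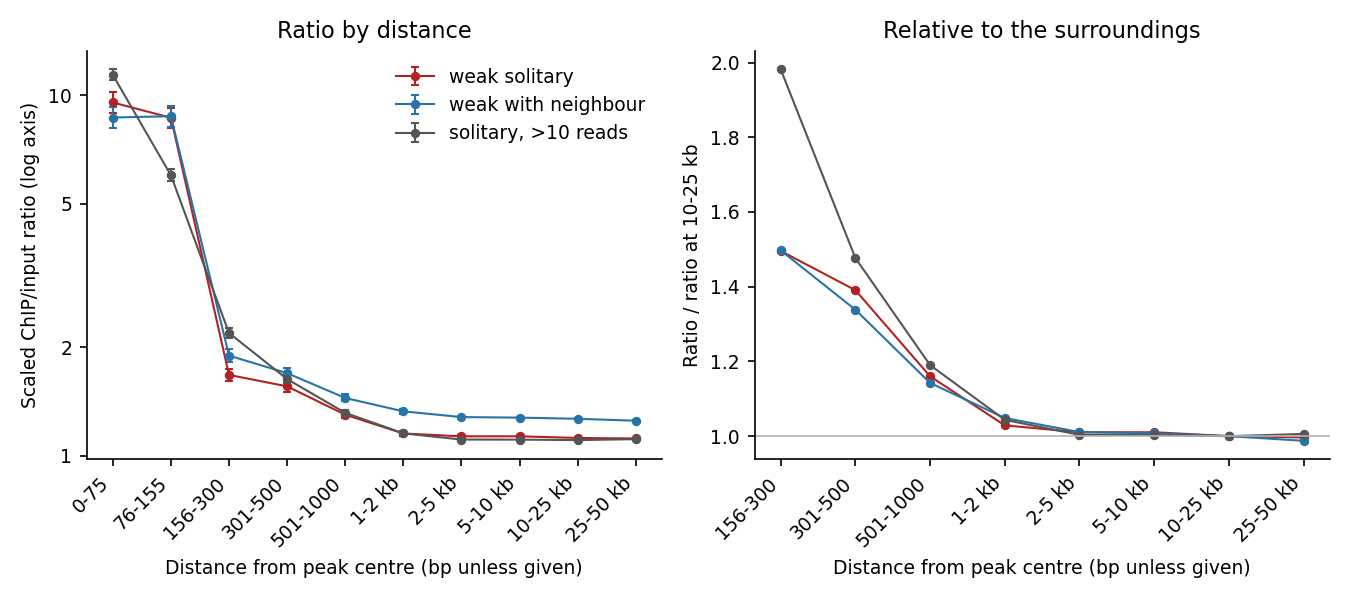
Left, scaled ChIP to input ratio (log axis, bars are exact 95% intervals) by distance from the peak centre for weak solitary, weak neighboured and stronger solitary peaks; beyond 2 kb the neighboured peaks stay near 1.27 and both solitary groups near 1.12. Right, the same ratios outside the counting window divided by the ratio at 10 to 25 kb, where both weak groups lie close together and below the stronger solitary peaks at 156 to 300 bp.

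The rise beside the members depended in part on where the centre was placed. The 310 bp window with the largest excess of ChIP over scaled input reads lay at the listed centre in 392 members (31.4%), more than 155 bp away in 44 (3.53%), and at a median of 20 bp. Around that window the ratio at 156 to 500 bp was 1.45 (1.41 to 1.49) in members, or 1.29 (1.26 to 1.33) relative to 10 to 25 kb. Weak peaks with a neighbour had 1.24 (1.21 to 1.28) on that relative scale and stronger solitary peaks 1.45 (1.42 to 1.48). On it, members stood at 0.895 (0.865 to 0.925) times the stronger solitary peaks and at 1.04 (1.003 to 1.08) times the neighboured ones. The latter interval lies just above 1, whereas around the listed centres it included 1. Rings at 10 to 25 kb around neighbouring peaks overlap and share reads. That interval is therefore too narrow, and the difference is not resolved.

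Within the members, the ratio beside the peak differed little by read count. At 156 to 500 bp the ratio was 1.57 (1.46 to 1.69) for 176 members with 1 to 6 ChIP reads, 1.59 (1.53 to 1.67) for 437 with 7 to 8 and 1.63 (1.57 to 1.69) for 634 with 9 to 10. These intervals overlap, while solitary peaks with 11 reads had 1.80 (1.71 to 1.90), as given above. By reads in the 310 bp window the ratio among solitary peaks rose, but not steadily. It was 1.48 (1.41 to 1.55) at 13 to 14 reads and 1.71 (1.64 to 1.78) at 17 to 18. At 22 to 26 reads it was 1.88 and at 27 to 40 it was 1.77 (1.69 to 1.85), with overlapping intervals. At 41 or more it was 2.19 (2.10 to 2.29). Neighboured peaks went from 1.68 at 13 to 14 reads to 1.98 (1.91 to 2.06) at 19 to 21. They then had 1.70 (1.64 to 1.76) at 27 to 40 reads and 2.18 at 41 or more.

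The surroundings of the members had slightly more ChIP reads than input over long distances. Over 1 kb bins within 500 kb of a member and at least 2 kb from any listed peak, the scaled ratio had a median of 1.09 (95% interval 1.08 to 1.11), with quartiles of 0.989 and 1.21. It was above 1 for 906 members (72.7%). Stronger solitary peaks had a median of 1.08 (1.08 to 1.09), with 73.6% above 1. Weak peaks with a neighbour had 1.23 (1.22 to 1.24), with 90.4% above 1. Over the 2530 windows of 1 Mb with at least 2000 input reads the median was 0.954, and 41.2% were above 1. Pooled over peaks, members had 0.904 (0.903 to 0.905) of the regional ratio of weak peaks with a neighbour, and were lower on 20 of 20 chromosomes. At 156 to 500 bp the members were lower on 16 of 20. Windows of neighbouring peaks overlap and share reads, so the pooled interval is too narrow.

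The regional ratio varied more with the number of listed peaks around a peak than between the groups. With 0 other peaks within 500 kb, 149 members had a median of 0.902 (0.888 to 0.922) and 176 stronger solitary peaks 0.927 (0.911 to 0.943). With 3 to 5 other peaks, members had 1.08 (1.06 to 1.09), weak peaks with a neighbour 1.08 (1.06 to 1.10) and stronger solitary peaks 1.08 (1.07 to 1.09). With 11 or more, the medians were 1.28, 1.32 and 1.27. A member had a median of 4 other listed peaks within 500 kb and a weak peak with a neighbour had 10.

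**Figure D5:**
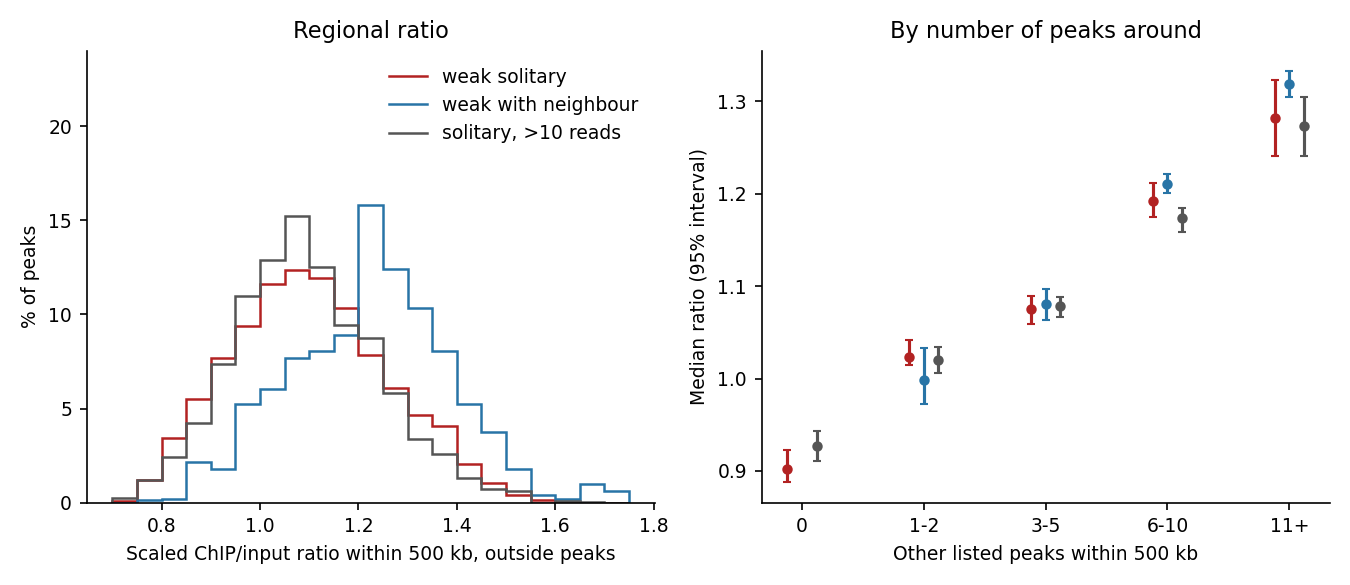
Left, distribution over peaks (y axis, % of peaks) of the scaled ChIP to input ratio within 500 kb and outside all peaks (x axis); weak and stronger solitary peaks overlap around 1.1 and weak neighboured peaks lie higher. Right, median ratio with its 95% interval by the number of other listed peaks within 500 kb, in the same colours. Groups present at a number lie close together there. Both solitary groups climb from about 0.9 to about 1.3. Weak neighboured peaks have at least 1 other peak, and climb from 0.998 at 1 to 2 peaks to about 1.3.

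Isolation of the members reached far, and the rise beside the peak was present at every degree of it. The nearest other listed centre was at a median of 133 kb, between 50 and 100 kb for 442 members and beyond 1000 kb for 74. The regional median was 1.16 (1.14 to 1.17) for members with a peak within 100 kb, 1.10 at 100 to 250 kb, 1.03 at 250 to 1000 kb and 0.883 (0.869 to 0.893) beyond. The ratio at 156 to 500 bp was 1.66 (1.59 to 1.73), 1.59, 1.55 and 1.61 (1.44 to 1.82) in the same order. For the 74 most isolated members this was 1.81 times their regional ratio, against 1.43 times for the 442 least isolated. The peaks themselves had ratios of 9.02 (8.11 to 10.0) and 8.86 (6.84 to 11.6) in these 2 classes.

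The most isolated members were ordinary in their counts. The member on chromosome 10 at 105245191 to 105245340 lay 5079 kb from the next listed centre. It held 8 ChIP and 0 input reads, 15 and 1 in the window, and had a regional ratio of 0.875. On chromosome 1, the member at 113878271 to 113878420 was 4615 kb from the next, with 8 ChIP and 0 input reads. Its window held 15 ChIP and 0 input reads. The member on chromosome X at 151043631 to 151043780 (3565 kb) held 5 ChIP reads and 1 input read, that on chromosome 8 at 102257521 to 102257670 (3480 kb) 6 and 1, and that on chromosome 3 at 157469631 to 157469780 (3388 kb) 10 and 2. Their regional ratios ran from 0.774 to 0.942, below 1 in all 5. Their own ratios are poorly resolved: with 5 ChIP reads and 1 input read the interval ran from 0.530 to 224.

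Members with the highest ratio in the ring from 76 to 500 bp were chosen for that value, which is therefore raised. The first, on chromosome 10 at 92591301 to 92591450, had 33 ChIP reads and 1 input read in the ring, a ratio of 31.2 (5.23 to 1270), beside 8 and 2 in the peak. The member on chromosome 16 at 22354741 to 22354890 had 22 and 1, and that on chromosome 8 at 127679311 to 127679460 had 21 and 1. Those on chromosome 10 at 43167291 to 43167440 and on chromosome 6 at 42659561 to 42659710 had 19 and 1 each, a ratio of 18.0 (2.86 to 747). Members with the most input reads were chosen by the 150 bp of the peak and not by the ring. The peaks at 57863971 to 57864120 of chromosome 15 and 131250011 to 131250160 of chromosome 2 each held 10 ChIP and 5 input reads. Their ratio in the peak was 1.89 (0.589 to 7.06), which is not resolved from 1 at this depth. In the ring their ratios were 2.93 (1.45 to 6.40) and 2.63 (1.19 to 6.40).

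The share of weak solitary peaks in the list differed between chromosomes. It was highest on chromosome X, 26 of 89 peaks (29.2%, 20.1 to 39.8%), and on chromosome 3, 85 of 309 (27.5%, 22.6 to 32.8%). It was lowest on chromosomes 7 (11.3%, 8.78 to 14.3%), 17 (11.4%), 19 (11.6%) and 11 (12%, 9.67 to 14.8%). On the other 14 chromosomes it lay between 16.2% and 22.8%.

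The same counts were sought across the genome in both directions, as the background in the input library. Places were runs of 310 bp windows with at most 14 reads of the lower library and at least the fewest reads of the higher library that any listed peak had. ChIP over input gave 16778 places and the exchanged libraries 2234, 7.51 times fewer. With 13 to 14 reads the numbers were 3399 and 533 (15.7%), with 15 to 16 reads 4269 and 564 (13.2%), with 22 to 26 reads 1617 and 294 (18.2%), and with at least 41 reads 1200 and 18 (1.5%). Reading the exchanged count as background takes the 2 libraries to scatter equally, and the list held further limits not given in the sources used here, so these shares are not error rates of the listed peaks.

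Places with 13 to 16 reads and no other listed peak within 50 kb were then compared between directions. Each was centred on its window with the largest count difference. Relative to 10 to 25 kb, the ratio of the higher to the lower library at 156 to 500 bp was 1.11 (1.08 to 1.15) at 765 ChIP places with a listed peak and 1.13 (1.11 to 1.15) at 3023 without. It was 0.883 (0.853 to 0.915) at 892 places with the libraries exchanged. The excess of ordered pairs did not separate the directions, at 1.71 (1.66 to 1.76), 1.39 (1.37 to 1.41) and 1.82 (1.77 to 1.88), and the strand distance was 105, 103 and 119 bp. In weak places a rise outside the window was thus seen for ChIP and not for input. An excess of ordered strands was found in both directions. Places were chosen by counts of moved ends, which favours plus ends before minus ends in either direction. The excess therefore follows in part from that choice, and nothing is read from it.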

How the data were processed

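The read files deposited by the authors list 1 aligned read of 35 bp per line, with no other value (their value column is 0 throughout); each position and strand occurred once per library. Per the submitters' processing notes, the build was mm8 and HOMER was among the tools. The list of peaks deposited by the authors is named for the peak caller CCAT; the sources used here give neither the aligner nor any settings. That list, as deposited, gives a score per peak of 150 bp, at least 5 throughout. The labels' protocols give 1% formaldehyde for 10 min, fragments of about 200 bp, 4 µg of antibody, 10 ng of DNA, 15 PCR cycles and a gel cut at 200 to 300 bp.

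Ratios carry exact conditional binomial (Clopper-Pearson) 95% intervals, shares exact binomial ones, medians order statistic ones, and quotients of ratios a log scale counting error; reads copied by PCR need not come from separate molecules. Strand distances were smoothed over 21 bp up to 400 bp. The members and lists were chosen with earlier results of these data known. Named peaks are the 5 members with the highest score, the 5 farthest from other peaks, the 5 with the highest ratio at 76 to 500 bp among those with at least 5 ChIP reads there, and the 3 with the most input reads in the peak. A genome and gene annotation of mm8 were not used here, so the planned counts of EBF1 motifs and genes, and sequences, are not reported. Scripts ran in Python 3.11.15 with scipy 1.17.1, matplotlib 3.10.9, numpy 2.4.6 and pandas 2.3.3. Ratios, strand distance, width and the regional ratio were tested on simulated sites planted at known centres on an even background. The simulated sites were not chosen or centred by their reads, so the effects of that choice were not covered.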

Additional observations from a re-analysis of the deposited data

Results flagged for a closer look

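Data outside the listed peaks held more places at the counts of listed peaks than the list itself. Of the 16778 places where ChIP and input reads in 310 bp reached the counts of listed peaks, 9570 contained no listed peak, against 2234 places in all with the libraries exchanged. Of the unlisted places 2932 held 13 to 14 ChIP reads, 3254 held 15 to 16 and 9 held 41 or more. The scan found 7337 of 7337 listed peaks with at most 14 input reads in the window. This follows from its limits, which were the fewest reads of any listed peak.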

How the results depend on the processing

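A count had moved when it differed by more than 1.5 times, other values when outside their 95% interval, the strand distance beyond 10 bp and the width beyond 20 bp. Of the recomputed values 47 stayed within these limits, 23 moved and 0 changed direction. The settings by window reads, without packed members, or from 156 bp were added with the data already seen. At most 8 ChIP reads left 613 members, with a ratio of 2.44 at 76 to 500 bp, 59.7% with an interval above 1 in the peak and 96.6% with both strands. A neighbour limit of 100 kb left 805 members with a regional median of 1.06. A limit of 25 kb gave a ratio of 2.41 at 76 to 500 bp, 1.67 at 156 to 500 bp, a regional median of 1.12 and a quotient to neighboured peaks of 0.986 (0.952 to 1.02), against 0.936 (0.906 to 0.968) at 50 kb and 0.904 from 156 bp. Reads moved by 50 bp gave a ratio of 10.9 in the peaks and 1.91 at 156 to 500 bp, 77.5% with an interval above 1 and 99.9% with both strands. With that move, the stretch from 156 bp takes in some ends that the 310 bp window behind the score had counted. The 1.91 is therefore not a value from outside that window. Taking solitary peaks with 13 to 16 window reads gave 14.6 in the peaks, 2.17 at 76 to 500 bp, 1.53 at 156 to 500 bp, a strand distance of 105 bp, 82.3% with an interval above 1 and 98.9% with both strands. Background scaling gave a regional median of 1.11, and ends moved by 100 bp a width of 208 bp. For none of them was the cause tested. With 1 library per group, depth limits what single members show. No paired analysis was possible because a single library stood in either group.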

Other observations

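Many weak solitary peaks had an unlisted place at the counts of listed peaks within 50 kb. This held for 559 of 1247 members (44.8%, 42.0 to 47.6%), for 827 of 1728 stronger solitary peaks (47.9%, 45.5 to 50.2%) and for 1013 of 1391 weak peaks with a neighbour (72.8%, 70.4 to 75.1%). Places from the exchanged libraries lay within 50 kb of 9.70%, 11% and 9.35% of the same peaks. The 688 members with 0 unlisted places nearby had a regional median of 1.04 (1.03 to 1.05) and a ratio of 1.59 (1.53 to 1.64) at 156 to 500 bp. The other 559 had 1.16 (1.14 to 1.17) and 1.63 (1.57 to 1.70). Being solitary in the list thus did not mean that no other place within 50 kb reached the counts of listed peaks. The share around random positions is not given here, and the list held further limits that are not known.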
